A study of Homo sapiens with 4 samples.

Results

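The genes that make cholesterol and fatty acids were followed in naïve human embryonic stem cells (ESCs) grown in 2-D and in 3-D culture. A list of 32 genes, chosen with earlier results of these data known, was matched to the 60564 gene identifiers of the count files. The match was by Ensembl identifier and GENCODE symbol, and all 32 were found. They fall into 19 enzymes of sterol synthesis, 6 regulators of sterol supply and 7 enzymes of fatty acid synthesis. All 32 passed the filter on low counts and are among the 22555 genes tested.

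RNA-seq was performed on Elf1 cells, a naïve human ESC line that the study kept on mouse feeder cells before feeder-free culture. The 2-D grown cells adhered to Matrigel on plastic plates, and the 3-D grown cells were encapsulated as dissociated cells in self-assembling PEG-8-SH/PEG-8-Acr scaffolds and held there for 21 days. Both conditions used the same ESC expansion medium, which holds serum replacement, FGF2, LIF and inhibitors of GSK3 and MEK. Each condition has 2 libraries, called replicates 1 and 2, all from the same cell line, and the number of days of the 2-D culture is not given in the sources used here. Reads counted in genes came to 33833778 (replicate 1) and 30114220 (replicate 2) for 2-D, and to 21154409 and 18276147 for 3-D.

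Cholesterol is built from acetyl-CoA. The mevalonate enzymes make the isoprenoid farnesyl diphosphate, squalene synthase joins its molecules to squalene, and squalene is then oxidized, closed into the first sterol, lanosterol, and trimmed to cholesterol. Most of these genes, and many genes of fatty acid synthesis, are transcribed under SREBP factors, which leave the endoplasmic reticulum with their escort SCAP when membrane sterol is low and are held back by the INSIG proteins when it is high. Pluripotent cells divide fast and draw on both routes for new membrane.

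Between the culture conditions, differences were small. Of the sterol enzymes 15 of 19 had estimates below zero in the 3-D grown cells relative to 2-D, and of the fatty acid enzymes 6 of 7 had estimates above zero, of which SCD was at 0.00085 and ACLY at 0.0013. These tallies moved with the setting, from 3 to 8 sterol enzymes and from 3 (with library size as the only scaling) to 6 fatty acid enzymes above zero over 16 settings. The shares that follow are descriptions, because the list was chosen with earlier results of these data known. They were not matched for count level. In edgeR's quasi-likelihood test 9 of the 32 genes passed the threshold of an adjusted p below 0.05 (28.1% against 7.90% of all genes tested). Of these, 7 were lower in the 3-D grown cells (21.9% against 3.36% of all genes) and 2 were higher (6.25% against 4.54%). The 7 lower genes were ACAT2, HMGCS1, CYP51A1 and MSMO1 of the sterol enzymes and INSIG1, INSIG2 and STARD4 of the regulators, and the 2 higher genes were SQLE and FADS2. The likelihood ratio test called 4 of the 32 (12.5% against 5.05% of all genes) and DESeq2 called 2 (6.25% against 3.70%). DESeq2 gave 4 of the 32 no adjusted p, and these could not be called there. At an unadjusted p below 0.05 the quasi-likelihood test had 9 lower and 6 higher genes, where 10.2% and 11.1% of all genes were lower and higher. The 3-D libraries lay below both 2-D libraries for 10 of the 32 genes and above both for 8, where 25.1% and 25.4% of all genes tested do so (50.5% together). The sum over all 32 genes was nearly level, at 4296 and 4300 CPM in 2-D and 4260 and 4283 CPM in 3-D, where CPM is the count of a gene scaled to the size of its library with edgeR's TMM factors.

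**Figure D1:**
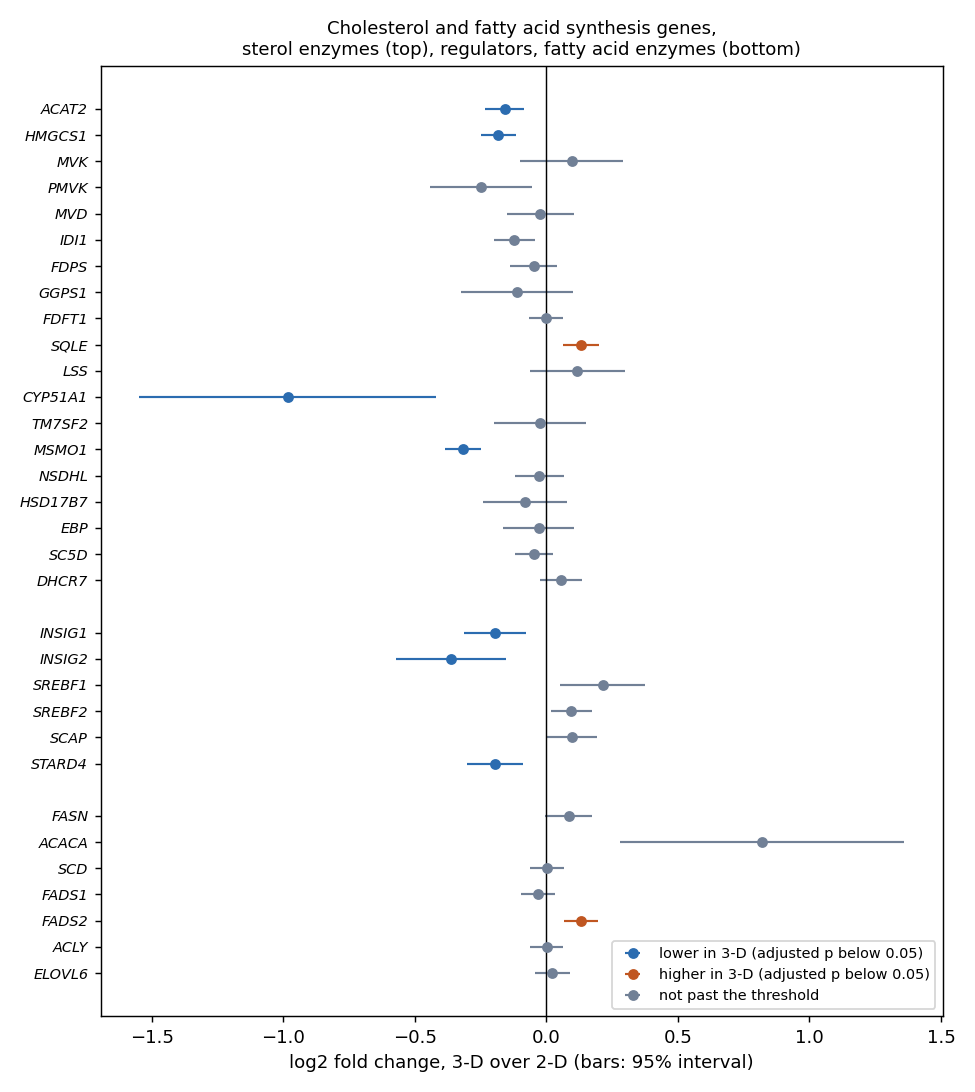
Log2 fold change of each of the 32 genes, 3-D over 2-D, with 95% intervals of edgeR's quasi-likelihood fit (2 libraries per condition), grouped as sterol enzymes, regulators and fatty acid enzymes. Blue points are lower and orange points higher in 3-D where the adjusted p was below 0.05, and most points lie within 0.2 of zero, with CYP51A1 at -0.98 and ACACA at 0.82 the farthest from it.

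The upstream sequences of 4 genes that were lower in the 3-D grown cells, 2 enzymes and 2 regulators, each hold a CCAAT box and are shown for that. Printed are the bases before the gene start that overlap no exon, 5′ to 3′ on the gene's own strand, from the RefSeq promoter table for GRCh38.p14. Capitals mark the CCAAT box bound by NF-Y (CCAAT, or ATTGG on the other strand) and the GC box bound by SP1 (GGGCGG, or CCGCCC on the other strand).
HMGCS1 (chr5:43313513-43313662, minus strand): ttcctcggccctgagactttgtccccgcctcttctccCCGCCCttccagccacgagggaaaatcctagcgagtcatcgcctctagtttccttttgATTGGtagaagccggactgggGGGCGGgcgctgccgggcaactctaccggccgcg
MSMO1 (chr4:165327419-165327666, plus strand): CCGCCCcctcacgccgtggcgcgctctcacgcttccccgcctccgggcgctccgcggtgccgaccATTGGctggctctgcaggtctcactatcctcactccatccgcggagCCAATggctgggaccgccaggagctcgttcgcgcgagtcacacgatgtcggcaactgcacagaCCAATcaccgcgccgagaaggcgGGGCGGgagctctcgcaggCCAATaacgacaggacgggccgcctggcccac
INSIG1 (chr7:155297628-155297775, plus strand): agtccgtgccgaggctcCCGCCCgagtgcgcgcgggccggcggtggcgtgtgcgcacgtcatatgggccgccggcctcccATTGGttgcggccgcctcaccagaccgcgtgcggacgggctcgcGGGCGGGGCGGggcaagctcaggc
STARD4 (chr5:111512591-111512785, minus strand): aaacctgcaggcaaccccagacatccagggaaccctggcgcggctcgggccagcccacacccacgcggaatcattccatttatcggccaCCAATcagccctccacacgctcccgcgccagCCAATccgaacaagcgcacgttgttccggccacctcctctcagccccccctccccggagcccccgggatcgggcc

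MSMO1 carries 4 CCAAT boxes in these bases, STARD4 carries 2, and HMGCS1 and INSIG1 carry 1 each. In the full promoter windows, which run from 250 bases before to 50 bases after each start, 21 of the 28 listed genes found in the table held a CCAAT box (75%), compared with 39.7% of the 27305 genes of the whole table. A GC box was present in 27 of the 28 (96.4%), compared with 48.3%. The palindrome CACGTG, the E-box, was present in 4 of the 28 (14.3%), compared with 8.77%. The letters of an SREBP site, TCACNCCAC, were present in 1 of the 28 (3.57%), compared with 1.39% of all genes. That match lies 133 to 125 bases before the start of SREBF2, the gene of SREBP2 itself.
SREBF2 (chr22:41832962-41832990, plus strand, site in capitals): tgacgcgccaTCACCCCACgcaccgcttc

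All motifs were searched on both strands, with overlapping matches counted, and a match is a description of the letters only. Only the letters given were searched, and only in these windows, so a missing match does not show that a gene lacks a site. CYP51A1 and INSIG2 held no CCAAT box in their windows and are not shown. Genes not called lower also held a CCAAT box in their windows, among them MVK, NSDHL, ACLY and FADS2, of which FADS2 was called higher. Whether the box bears on the levels was not tested. The promoters of ACAT2, FDFT1, SQLE and FASN are not printed or searched.

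The first 2 enzymes of the mevalonate pathway were lower in the 3-D grown cells. HMGCS1 (ENSG00000112972.15, GRCh38 chr5:43287470-43313512), which condenses acetoacetyl-CoA with acetyl-CoA to HMG-CoA, was at 311 and 317 CPM in 2-D and at 281 and 273 CPM in 3-D. Both 3-D libraries lay below both 2-D libraries. The log2 fold change was -0.18 (SE 0.03), a level that fell by 11.9%, with an adjusted p of 0.00333.

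ACAT2 (chr6:159762045-159779112), the cytosolic thiolase that makes the acetoacetyl-CoA used by HMGCS1, was at 127 and 124 CPM in 2-D and at 116 and 109 CPM in 3-D. Again the libraries of the conditions did not overlap, and the level fell by 10.4% (log2 fold change -0.16, SE 0.03, adjusted p = 0.0135). The call was lost in the likelihood ratio test (adjusted p = 0.050002), in DESeq2 (adjusted p = 0.0655) and without 2-D replicate 1 (adjusted p = 0.0971). Its exons share 454 bases with TCP1 on the opposite strand, which had 14078 and 12707 counts in 2-D and 7892 and 6831 in 3-D. Those of HMGCS1 share 37.7% of their bases with an antisense lncRNA that had 2225 and 1891 counts in 2-D and 1231 and 1048 in 3-D. Whether reads were counted by strand is not given in the sources used here, so reads of such pairs may not be separated.

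The later mevalonate enzymes did not pass the threshold. IDI1, which isomerizes the isoprenoid unit, came closest, at 85.0 and 86.9 CPM in 2-D and 80.6 and 77.2 CPM in 3-D (log2 fold change -0.12, SE 0.04, adjusted p = 0.0610). PMVK, the phosphomevalonate kinase, had the largest estimate of the 8 enzymes, -0.25 (SE 0.09, adjusted p = 0.123), on 13.0 and 12.9 CPM in 2-D and 10.6 and 11.3 CPM in 3-D. In both genes the 3-D libraries were the lower pair, as in 25.1% of all genes tested.

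MVK, the mevalonate kinase, had a log2 fold change of 0.10 (SE 0.09) and MVD, the mevalonate diphosphate decarboxylase, of -0.02 (SE 0.06). FDPS, which makes farnesyl diphosphate, was at -0.05 (SE 0.04) and GGPS1, which makes the longer geranylgeranyl diphosphate for protein prenylation, at -0.11 (SE 0.10). In these 4 genes the libraries of the conditions overlapped. A protein-coding gene model on the same strand covers 37.3% of the exon bases of GGPS1. It had 126 and 101 counts in 2-D and 67 and 50 in 3-D, and how shared reads were counted is not given in the sources used here. Summed over the 8 mevalonate enzymes, the level was 706 and 709 CPM in 2-D and 658 and 630 CPM in 3-D. Their median log2 fold change was -0.12, 7 had negative estimates, and 2 were called, both lower (25%, beside 3.36% of all genes tested).

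The steps from squalene to cholesterol moved in different directions. MSMO1 (chr4:165327667-165343164), the methylsterol monooxygenase of sterol demethylation, was at 171 and 176 CPM in 2-D and at 138 and 140 CPM in 3-D. The gap between the conditions was far larger than the distance between replicates. The level fell by 19.7% (log2 fold change -0.32, SE 0.03), and its adjusted p, 7.02e-05, was the smallest among the 32 genes.

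SQLE (chr8:124998497-125022283), the squalene epoxidase that commits squalene to sterols, was at 186 and 189 CPM in 2-D and at 208 and 201 CPM in 3-D. It was the only sterol enzyme called higher, by 9.51% (log2 fold change 0.13, SE 0.03, adjusted p = 0.0216). This call was lost without either 2-D library in turn (adjusted p 0.233 without replicate 1 and 0.138 without replicate 2), with library size as the only scaling (log2 fold change 0.07), in DESeq2 (adjusted p = 0.0652) and in edgeR's likelihood ratio test (adjusted p = 0.138). The ratio of SQLE to MSMO1 was 1.09 and 1.07 in 2-D and 1.51 and 1.44 in 3-D, and the ratio of SQLE to HMGCS1 was 0.598 and 0.594 in 2-D and 0.742 and 0.739 in 3-D, values that do not depend on how the libraries are scaled.

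CYP51A1 (chr7:92084987-92134803), the lanosterol demethylase, had the largest fold change of the 32 genes on very few reads. It had 117 and 110 counts in 2-D and 49 and 19 counts in 3-D, or 3.40 and 3.57 CPM against 2.38 and 1.06 CPM. Both 3-D libraries were lower, yet they differed more from each other than the 2-D libraries did. The log2 fold change was -0.98 (SE 0.26, adjusted p = 0.0366). Without 3-D replicate 2 it was -0.54 and was no longer called (adjusted p = 0.113), and without 3-D replicate 1 it was -1.71. With the 2-D counts thinned to the depth of the 3-D libraries the call was also lost (adjusted p = 0.0915).

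The low count of CYP51A1 has to be read with its gene model. On the same strand, a protein-coding gene model (ENSG00000285772) covers 68.2% of its exon bases and had 0 counts in every library. On the opposite strand, CYP51A1 shares 108 exon bases with AKAP9, which had 3918 and 3698 counts in 2-D and 2654 and 2210 in 3-D. Reads that overlap the exons of more than 1 gene are left unassigned by featureCounts unless it is told otherwise, and the setting used is not given in the sources used here. Its pseudogene CYP51A1P2 had 31, 39, 9 and 7 counts in the order 2-D replicates 1 and 2 and 3-D replicates 1 and 2, CYP51A1P1 had 16, 20, 7 and 6, and CYP51A1P3 had 13, 12, 4 and 6. The level of CYP51A1 is therefore uncertain.

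The other 8 enzymes from squalene synthase onward were not called. FDFT1, the squalene synthase at the branch point, was at 295 and 292 CPM in 2-D and at 297 and 290 CPM in 3-D, with a log2 fold change of -0.0015 (95% interval -0.07 to 0.06). LSS, which closes the ring to lanosterol, was at 30.8 and 36.6 CPM in 2-D and 34.6 and 38.6 CPM in 3-D, an overlap of the conditions (log2 fold change 0.12, SE 0.08). A copy of 88.2% of the LSS transcript, 100% identical, lies on an alternate contig, and its part in these levels was not tested. The estimate of LSS ran from -0.0026 without 2-D replicate 1 to 0.25 without 2-D replicate 2. NSDHL, which works after MSMO1 in demethylation, had a log2 fold change of -0.03 (95% interval -0.12 to 0.07).

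HSD17B7, the ketosteroid reductase of the same complex, was at -0.08 (95% interval -0.24 to 0.08), and counts of its pseudogene HSD17B7P2 came to 13.9% of its own. TM7SF2, a sterol reductase, was at -0.02, EBP, the sterol isomerase, at -0.03, and SC5D, the sterol desaturase, at -0.05. A protein-coding gene model on the same strand covers 36.4% of the exon bases of EBP. It had 5 and 7 counts in 2-D and 2 and 4 in 3-D, and how shared reads were counted is not given. DHCR7, which reduces 7-dehydrocholesterol to cholesterol, was at 0.05 (95% interval -0.03 to 0.13), with 85.9 and 86.8 CPM in 2-D and 87.1 and 92.3 CPM in 3-D. These estimates are smaller than the change of MSMO1, and the intervals of FDFT1, NSDHL, EBP, SC5D, TM7SF2 and DHCR7 stay within 0.2 of zero on the log2 scale.

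Across all 19 sterol enzymes, 15 had negative and 4 positive estimates. Of the 19, 4 were called lower and 1 higher (21.1% and 5.26%, beside 3.36% and 4.54% of all genes tested). The median log2 fold change was -0.05, beside -0.00014 over all genes tested. Their summed level was 1756 and 1767 CPM in 2-D and 1691 and 1665 CPM in 3-D. The likelihood ratio test called 3 of them lower and DESeq2 called 2 lower, with 0 higher in either. DESeq2 gave PMVK, GGPS1 and CYP51A1 no adjusted p.

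**Figure D2:**
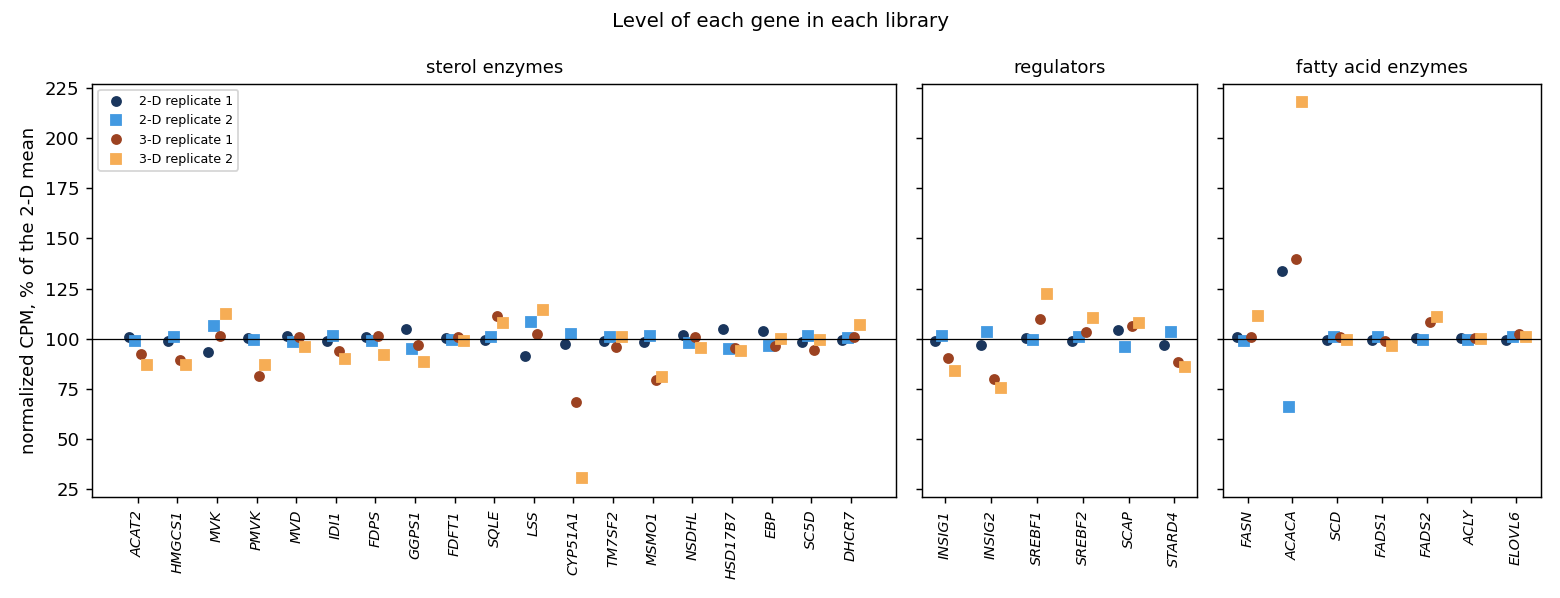
TMM-normalized CPM of every gene in each of the 4 libraries, as a percentage of the mean of the 2 libraries of 2-D grown cells (horizontal line at 100). The paired 3-D points of HMGCS1, ACAT2, MSMO1, INSIG1, INSIG2 and STARD4 sit together below the 2-D points, CYP51A1 and ACACA spread widely between replicates, and SCD, ACLY, FDFT1 and ELOVL6 sit close to the line in all libraries.

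Among the regulators, the INSIG genes and STARD4 were lower while the SREBP genes and SCAP had positive estimates that were not called. INSIG1 (chr7:155297776-155310235), itself an SREBP target that retains SCAP in the endoplasmic reticulum, was at 46.2 and 47.5 CPM in 2-D and at 42.4 and 39.3 CPM in 3-D. The libraries did not overlap, and the level fell by 12.7% (log2 fold change -0.20, SE 0.05, adjusted p = 0.0443).

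INSIG2 (chr2:118088452-118110997), the second retention protein, was at 11.5 and 12.3 CPM in 2-D and at 9.49 and 8.98 CPM in 3-D. It fell by 22.2% (log2 fold change -0.36, SE 0.10, adjusted p = 0.0380), the largest drop of the group. STARD4 (chr5:111496033-111512590), a soluble carrier that moves sterol between membranes, was at 52.5 and 56.1 CPM in 2-D and at 48.0 and 46.7 CPM in 3-D, a fall of its level to 0.873 of the 2-D level (log2 fold change -0.20, SE 0.05, adjusted p = 0.0285). In both genes the 3-D libraries were the lower pair, as in 25.1% of all genes tested. STARD4 shares 124 exon bases with the antisense lncRNA STARD4-AS1, which had 5524 and 4962 counts in 2-D and 3195 and 2963 in 3-D.

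SREBF1, the gene of the SREBP1 factors that favour fatty acid genes, was at 20.6 and 20.4 CPM in 2-D and 22.6 and 25.2 CPM in 3-D (log2 fold change 0.21, SE 0.07, adjusted p = 0.112). SREBF2, the gene of the factor that favours sterol genes, was at 161 and 164 CPM in 2-D and 168 and 180 CPM in 3-D (log2 fold change 0.09, SE 0.04, adjusted p = 0.138). SCAP, which carries both factors to the Golgi, was at 71.5 and 65.7 CPM in 2-D and 72.9 and 73.9 CPM in 3-D (log2 fold change 0.10, SE 0.04, adjusted p = 0.228). The 3-D libraries were the higher pair in all 3 genes, as they were in 25.4% of all genes tested. In each of the 3, 3-D replicate 2 was the higher of the pair. With 3-D replicate 1 left out, SREBF1 (0.29, adjusted p = 0.0145) and SREBF2 (0.15, adjusted p = 6.44e-04) were called higher. With 3-D replicate 2 left out they were at 0.14 (adjusted p = 0.359) and 0.05 (adjusted p = 0.415). With library size alone SREBF2 and SCAP were both at 0.03, and with length and GC offsets again both at 0.03.

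The 6 regulators thus split into 3 called lower (50%, beside 3.36% of all genes tested) and 3 not called. Their median log2 fold change was -0.05. The 3 calls are near the threshold. DESeq2 and the likelihood ratio test called 0 of the 6, but DESeq2 gave INSIG2 no adjusted p and could not call it. In DESeq2 the adjusted p was 0.158 for INSIG1 and 0.122 for STARD4. In the likelihood ratio test it was 0.146 for INSIG1, 0.0776 for INSIG2 and 0.0990 for STARD4. At an unadjusted p below 0.05, edgeR's quasi-likelihood test had 3 of the 6 lower and 3 higher. Leaving out 2-D replicate 2 or 3-D replicate 2 ended the call of each of the 3 genes (adjusted p from 0.0513 to 0.344), and leaving out 2-D replicate 1 ended those of INSIG1 (0.0936) and INSIG2 (0.0597). Thinning the 2-D counts to the 3-D depth ended those of INSIG2 (adjusted p = 0.140) and STARD4 (adjusted p = 0.0630). The ratio of INSIG1 to INSIG2 was 4.02 and 3.87 in 2-D and 4.47 and 4.37 in 3-D, and that of SREBF1 to SREBF2 was 0.128 and 0.124 in 2-D and 0.134 and 0.140 in 3-D. RNA levels of these genes do not measure the cleaved, active SREBP proteins, which were not measured.

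Most fatty acid enzymes had estimates close to zero. SCD, the desaturase that makes oleate, was at 850 and 861 CPM in 2-D and 863 and 848 CPM in 3-D. The conditions overlapped, and the 95% interval of the log2 fold change ran from -0.06 to 0.07. ACLY, which supplies cytosolic acetyl-CoA to both pathways, was at 421 and 417 CPM in 2-D and 421 and 418 CPM in 3-D (95% interval -0.06 to 0.06).

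FASN, the fatty acid synthase, was at 478 and 469 CPM in 2-D and 478 and 526 CPM in 3-D (log2 fold change 0.08, SE 0.04, adjusted p = 0.258). Only 3-D replicate 2 was above the 2-D libraries, and without 3-D replicate 1 the gene was called higher (log2 fold change 0.15, adjusted p = 3.82e-05). FASN was at 0.015 without 3-D replicate 2 (adjusted p = 0.818), at 0.010 with length and GC offsets (adjusted p = 0.894) and at 0.021 with library size alone. ELOVL6, which elongates palmitate, had a log2 fold change of 0.02 (95% interval -0.04 to 0.09).

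FADS2 (chr11:61792980-61867354), the desaturase that opens polyunsaturated fatty acid synthesis, was the fatty acid enzyme called higher. It was at 151 and 149 CPM in 2-D and at 162 and 166 CPM in 3-D, with no overlap, and was higher by 9.51% (log2 fold change 0.13, SE 0.03, adjusted p = 0.0177). FADS1, its neighbour on the opposite strand with 490 shared exon bases and the next desaturase of the route, was at 148 and 150 CPM in 2-D and 147 and 144 CPM in 3-D (log2 fold change -0.03, SE 0.03). The ratio of FADS2 to FADS1 was 1.02 and 0.991 in 2-D and 1.10 and 1.15 in 3-D. The call of FADS2 was lost when length and GC offsets were fitted (log2 fold change 0.06, adjusted p = 0.267), with library size alone (0.07), in DESeq2 (adjusted p = 0.0906), in the likelihood ratio test (adjusted p = 0.117) and without either 2-D library (adjusted p 0.110 and 0.225).

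ACACA, the acetyl-CoA carboxylase that makes malonyl-CoA, differed as much between replicates as between conditions. It had 647 and 286 counts in 2-D and 403 and 548 in 3-D, or 18.8 and 9.28 CPM against 19.6 and 30.6 CPM. The 3-D libraries were above both 2-D libraries, although 3-D replicate 1 exceeded 2-D replicate 1 by little. The log2 fold change of 0.82 (SE 0.25) was not called (adjusted p = 0.0660), and it ranged from 0.41 without 2-D replicate 2 to 1.43 without 2-D replicate 1. It was called higher without 2-D replicate 1, 2-D replicate 2 or 3-D replicate 1, without the filter on low counts, and in the likelihood ratio test (adjusted p = 0.0348). A copy of the whole transcript with 99.97% identity lies on an alternate contig of the same chromosome, and whether reads could be lost to it depends on the authors' index, which was not tested.

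Over the 7 fatty acid enzymes the median log2 fold change was 0.02. By edgeR's quasi-likelihood test 1 was called higher (14.3%, beside 4.54% of all genes tested) and 0 lower. At an unadjusted p below 0.05 there were 2 higher and 0 lower, the likelihood ratio test called 1 higher (ACACA), and DESeq2 called 0. Their summed level was 2177 and 2167 CPM in 2-D and 2206 and 2244 CPM in 3-D. Of the 23 genes of the list that were not called, 15 had a 95% interval within 0.2 of zero on the log2 scale, 5 of them fatty acid enzymes, so that a change beyond that size lies outside their intervals. The intervals of the 8 others reach beyond it.

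Levels compared between genes were taken as TPM, the count of a gene divided by its union exon length and scaled to the same sum in each library. In the 2-D grown cells SCD was the most abundant, at 500 TPM (SD 13.7, n = 2), followed by ACLY at 247, MSMO1 at 186 and FDFT1 at 177 TPM. FASN was at 156 TPM. ACAT2 (146 TPM) and HMGCS1 (145 TPM) overlapped in their libraries, and SQLE was next at 133 TPM.

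The regulators ran from SREBF2 at 62.1 TPM, through INSIG1 at 39.4, SCAP at 33.5 and STARD4 at 29.3 TPM, to INSIG2 at 9.24 and SREBF1 at 7.66 TPM. The lowest 3 genes were MVK at 5.64, ACACA at 3.29 and CYP51A1 at 2.56 TPM, and the libraries of the last pair overlapped. The order depends on the annotated exon length. MVK, with 9018 bases, had a mean of 16.5 CPM in 2-D, above PMVK at 12.9 CPM with 1002 bases, which was at 39.6 TPM. In the 3-D grown cells MSMO1 was at 141 TPM (SD 7.54) and SQLE at 137 TPM (SD 2.21), and the libraries of these genes, apart in 2-D, overlapped. HMGCS1 was at 120 and ACAT2 at 123 TPM in the 3-D grown cells.

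**Figure D3:**
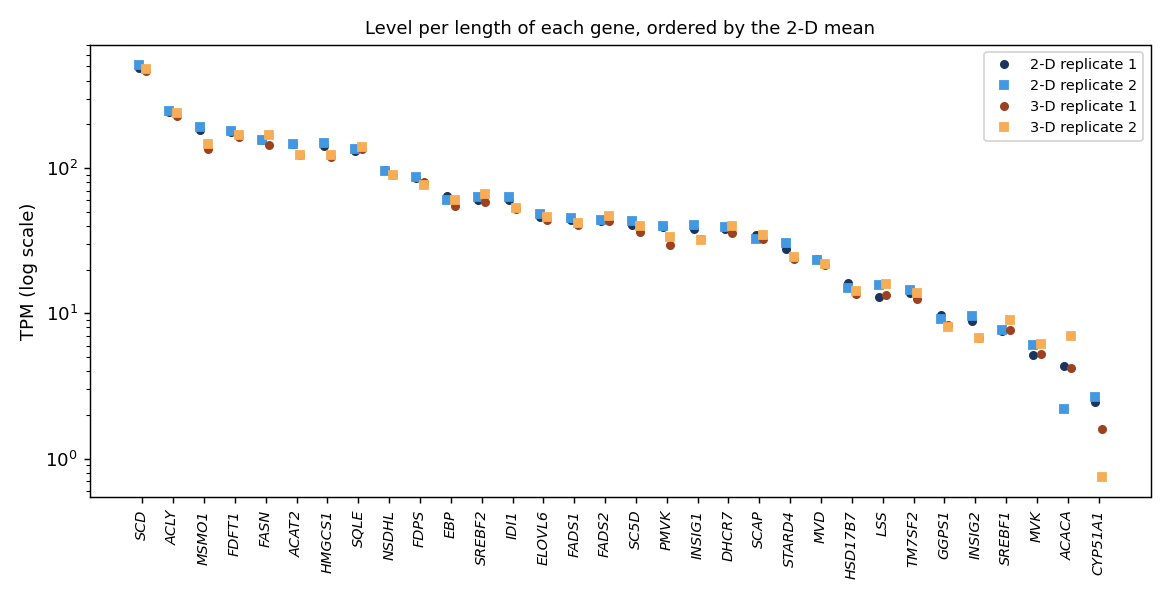
TPM of each of the 32 genes in the 4 libraries on a log scale, ordered by the mean of the 2-D grown cells. Levels run from SCD near 500 TPM to CYP51A1 at 2.56 TPM in 2-D, and the order of most genes is alike in the 3-D libraries.

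Within the list, the genes called lower had lower GC content than most. The GC content of the longest transcript was 34.4% to 44.8% for the 7 genes called lower (median 39.0%). The 23 not called ran from 36.9% to 65.3% (median 54.0%), and SC5D, GGPS1, IDI1, ELOVL6 and HSD17B7 of these lay within the range of the 7. The GC content of all genes tested is not given here. Across the 32 genes the log2 fold change and GC content had a Pearson correlation of 0.42 and a Spearman correlation of 0.62, and 0.65 and 0.64 without ACACA and CYP51A1. Within the 23 genes not called the Pearson and Spearman correlations were 0.13 and 0.42, and within the 7 called lower -0.09 and 0.39. The genes share the 4 libraries, so these are descriptions. When gene length and GC content entered the fit as offsets, MSMO1, HMGCS1, ACAT2 and CYP51A1 were still called lower and SQLE higher, but INSIG1 (adjusted p = 0.0640), INSIG2 (adjusted p = 0.0788), STARD4 (adjusted p = 0.105) and FADS2 were not.

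**Figure D4:**
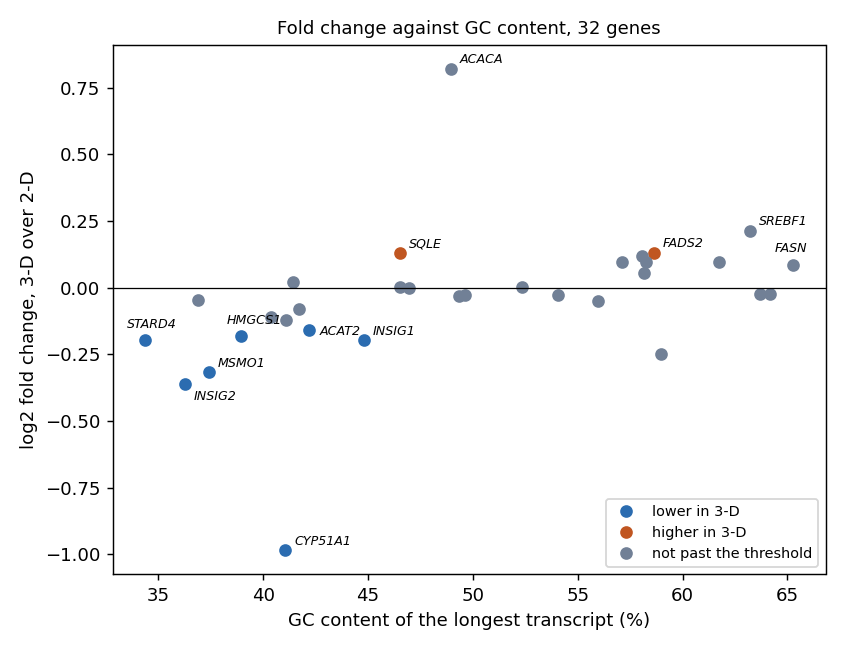
Log2 fold change, 3-D over 2-D, against the GC content of the longest transcript for the 32 genes. The 7 genes called lower (blue) lie at 34.4% to 44.8% GC. SREBF1, FADS2 and FASN, with positive estimates, lie at 63.2%, 58.6% and 65.3%. SQLE, ACACA and ELOVL6, also positive, lie at 46.5%, 48.9% and 41.4%. MVD (63.7%) and TM7SF2 (64.2%) have negative estimates.

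Other genes of lipid metabolism were read from the same fit. Of 87 further genes, 84 were tested, of which 2 were called higher and 3 lower, 5.95% beside the 7.90% of all genes, and the median log2 fold change was -0.01. None of the 10 genes that process SREBP or sense sterol was called by edgeR's quasi-likelihood or likelihood ratio test or by DESeq2, with 1 lower at an unadjusted p below 0.05 in the first. UBE2G2, the ubiquitin-conjugating enzyme that acts with the INSIG proteins on sterol-regulated degradation, had the smallest p of them (log2 fold change -0.09, SE 0.03, adjusted p = 0.112), and RNF139 and SEC23A were at -0.08 and -0.04.

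Of 11 other SREBP targets, 1 was called (9.09%, beside 7.90% of all genes tested). PNPLA3, a lipid droplet acyl hydrolase, was at 17.5 and 16.3 CPM in 2-D and at 13.4 and 13.7 CPM in 3-D (log2 fold change -0.32, SE 0.08, adjusted p = 0.0338). This call of PNPLA3 was lost in the likelihood ratio test (adjusted p = 0.0805), in DESeq2 (0.155), with the 2-D counts thinned (0.0888) and without 2-D replicate 1 (0.242). ERG28, a scaffold of the sterol demethylation complex in which MSMO1 works, was at 0.15 (SE 0.06, adjusted p = 0.153), RDH11 at 0.11 and ME1, the malic enzyme that yields NADPH, at -0.13. Of the 7 tested genes of the LXR and efflux list none was called by any of the 3 tests, and MYLIP had no adjusted p in DESeq2. RXRA (0.13), ABCA1 (0.14), LPCAT3 (0.07) and MYLIP (0.07) were all above zero. In the quasi-likelihood test 1 gene was higher at an unadjusted p below 0.05.

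Of 13 genes of sterol transport and storage, 1 was called (7.69%, beside 7.90% of all genes tested). LRP1, a large endocytic receptor, was called higher, at 297 and 283 CPM in 2-D and 315 and 335 CPM in 3-D (log2 fold change 0.16, SE 0.04, adjusted p = 0.0174). LRP1 was not called in the likelihood ratio test (adjusted p = 0.0786), with length and GC offsets (0.179), with library size alone (0.129) or without 2-D replicate 2 (0.203). PLIN3, a lipid droplet coat protein, was at -0.15 (adjusted p = 0.0557), OSBP at 0.10 and NPC2 at -0.12. Of the 9 genes of the isoprenoid branches none was called by the 3 tests, with 2 higher at an unadjusted p below 0.05 in the quasi-likelihood test and DHDDS (0.12), DOLK (0.20), COQ2 (0.13) and FNTA (-0.06) the nearest.

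In fatty acid elongation and activation, TECR, the reductase that closes each elongation cycle, was called higher, at 38.6 and 39.2 CPM in 2-D and 47.5 and 48.6 CPM in 3-D (log2 fold change 0.30, SE 0.05, adjusted p = 0.00271). It was the 1 called gene of the 18 tested (5.56%, beside 7.90% of all genes tested). FADS3 was at 0.22 (adjusted p = 0.0634), ELOVL4 at -0.26 (adjusted p = 0.0660) and ELOVL7 at -0.32 (adjusted p = 0.0844).

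Of 16 genes of fatty acid oxidation, 2 were called lower (12.5%, beside 3.36% of all genes tested). They were ETFDH (log2 fold change -0.34, SE 0.07, adjusted p = 0.0135) and ETFA (-0.17, SE 0.05, adjusted p = 0.0458), which pass electrons from acyl-CoA dehydrogenases to the respiratory chain. ETFDH was at 30.7 and 32.6 CPM in 2-D and 26.5 and 23.4 CPM in 3-D, and its call was lost without 2-D replicate 2 (adjusted p = 0.0602). The call of ETFA was lost in the likelihood ratio test (adjusted p = 0.181), in DESeq2 (0.207) and without 2-D replicate 1, 2-D replicate 2 or 3-D replicate 1 (0.102 to 0.319). ECHS1 was at -0.14 and HADHA, of the trifunctional protein, at 0.08, neither of them called.

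The libraries also differed in other ways. Mitochondrially encoded genes took 5.30% and 5.10% of counts in 2-D and 8.502% and 8.33% in 3-D. Of the 8 core pluripotency and 8 naïve markers, 15 were tested and 0 called by edgeR's quasi-likelihood or likelihood ratio test or by DESeq2 (in the first, 4 higher and 1 lower at an unadjusted p below 0.05), although the naïve marker DPPA5 had only 0 to 4 counts. The core markers summed to 4271 and 4242 CPM in 2-D and 4341 and 4231 CPM in 3-D. Of 8 fibroblast markers, 6 were tested and 3 called higher (COL1A1, COL3A1 and THY1), 50% beside 4.54% of all genes tested. The 8 markers summed to 540 and 532 CPM in 2-D and 549 and 599 CPM in 3-D, while DCN, a defining marker, had 2 to 6 counts in every library. Of 6 adipocyte markers, the cells most devoted to lipid storage, 1 was tested, CIDEC had 0 counts in every library, and the sums were 1.12 to 1.79 CPM over all libraries. The endoderm, mesoderm, neural and trophoblast lists summed to 8.21 to 10.04, 66.3 to 71.6, 8.76 to 9.68 and 95.9 to 101 CPM, with TTR and CGA at 0 counts, and the quasi-likelihood test called 0 of their 15 tested genes (4 higher at an unadjusted p below 0.05), DESeq2 0 and the likelihood ratio test 2. The part of these differences in the results above was not tested. In bulk RNA, fewer cells of a type and less RNA per cell cannot be told apart.

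Some small estimates turned direction with the scaling of the libraries, with the length and GC offsets, with thinning and with a library left out. With library size as the only scaling the split of all called genes was 514 higher and 1879 lower, where TMM gave 1024 higher and 758 lower, and the 32 genes then had 9 called lower and 0 higher (1 higher at an unadjusted p below 0.05). Over 16 settings in all, MSMO1 and HMGCS1 were called lower in every setting. Without 2-D replicate 2, HMGCS1 (log2 fold change -0.17) was only just past the threshold. ACAT2 and CYP51A1 were called lower in 13, INSIG1 in 10, STARD4 in 9 and INSIG2 in 8 of the 16. In DESeq2, CYP51A1 and INSIG2 had no adjusted p and could not be called. SQLE was called higher in 11, FADS2 in 9 and ACACA in 7, and IDI1 was called lower in 5.

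**Figure D5:**
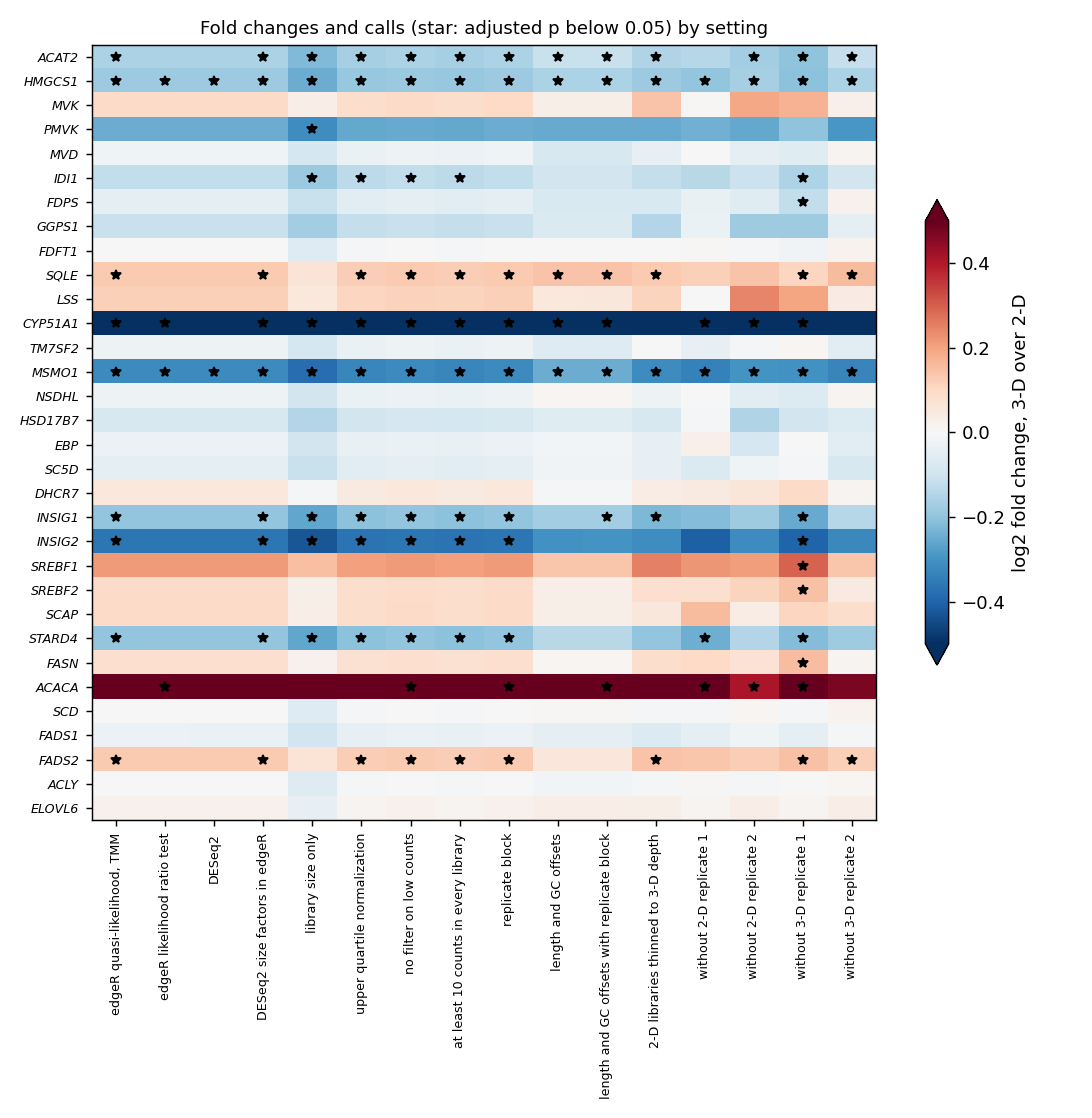
Log2 fold change of each of the 32 genes (colour, cut at 0.5 in size) under the fit reported here, in the first column, and under 15 alternatives, with stars where the adjusted p is below 0.05. MSMO1 and HMGCS1 carry a star in all 16 columns, SQLE in 11, and ACACA in 7.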

How the data were processed

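RNA-seq libraries of Elf1 cells from 2-D and 3-D culture, 2 of each, were analysed by the condition in their labels. Per the labels and methods, the authors depleted ribosomal RNA, trimmed reads with Trim Galore 0.6.3, mapped them to hg38 with HISAT2 2.1.0 and made the deposited counts, whole numbers of reads per gene without normalization, with featureCounts 1.6.4 and GENCODE release 30. The handling of strand, multi-mapped reads and alternate contigs is not given in the sources used here. The study describes its replicates as independent biological samples, and p-values measure only the spread between these libraries. The series' table of counts divided by DESeq2 size factors (version 2.11.40.6 of the tool is given), which also holds the authors' fold changes and p-values, was not used.

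Identifiers were matched to GENCODE release 44 (60295 of 60564, the rest holding 0.122% of counts), which also gave GRCh38 positions, exon lengths and GC content. In R 4.3.3, edgeR 4.0.16 was used with TMM normalization, its default filter on low counts, the quasi-likelihood test (glmQLFit, legacy mode) with condition alone, and Benjamini-Hochberg adjustment over the 22555 genes tested. A gene is called where its adjusted p is below 0.05, and the biological coefficient of variation was 5.10%. Standard errors are the fold change over the square root of F, and intervals are 95%. Procedures were tested on simulated data. Libraries of a condition differed by more than counting noise (chi-square over degrees of freedom 2.27 in 2-D and 3.92 in 3-D).

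The genes and lists were chosen with earlier results of these data known. All 32 genes are named, and of each other lipid list the 4 tested genes with the smallest p (1 of these is not reported here), of the marker lists the genes needed to show which defining markers are near 0 or called, and overlapping genes or pseudogenes where they bear on a count. Alternatives were the likelihood ratio test, DESeq2 1.42.0, 3 other scalings, 2 other count filters, a replicate block, length and GC offsets (natural splines, 5 degrees of freedom each), the block with those offsets, 2-D counts thinned to the 3-D depth, and leaving out each library. Copies were sought with minimap2 2.31-r1302, promoters come from a RefSeq table for GRCh38.p14, and Python 3.11.15 was used with numpy 2.4.6, pandas 2.3.3 and matplotlib 3.10.9.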

Additional observations from a re-analysis of the deposited data

How the results depend on the processing

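Of 480 values of the 32 genes under 15 alternatives, 390 kept their direction and their side of the threshold, 39 lost a call, 17 gained one and 34 turned direction. The 34 values belong to 11 genes, and none of them exceeded 0.064 in size after turning. Only MSMO1 and HMGCS1 were called under all 15. The cause was not tested unless stated. DESeq2 size factors in edgeR gave the same 9 calls. In the likelihood ratio test 1 gene of the 32 was called higher (ACACA) and 3 lower, with 1 and 1 of the other lipid genes and 651 and 488 of all genes. In DESeq2 0 of the 32 were called higher (2 at an unadjusted p below 0.05) and 2 lower, with 1 other lipid gene lower. Of all genes, 531 were higher and 303 lower. PMVK, GGPS1, CYP51A1 and INSIG2, 4 of the 32, had no adjusted p and could not be called there.

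With library size only, 0 of the 32 were called higher, 1 and 10 other lipid genes were higher and lower, and 514 and 1879 of all genes. The median log2 fold change of all genes tested was then -0.065. The medians became -0.11 for the sterol enzymes, -0.12 for the regulators and -0.042 for the fatty acid enzymes, and 4 genes turned negative, DHCR7 (-0.010), SCD (-0.064), ACLY (-0.063) and ELOVL6 (-0.042). With upper quartile normalization the median of the regulators was -0.059 and of the fatty acid enzymes 0.014, with SCD at -0.0076 and ACLY at -0.0072. Without the filter on low counts SCD was at -0.0012 and ACLY at -0.00080. With at least 10 counts in every library these medians were -0.058 and 0.015, with SCD at -0.0067 and ACLY at -0.0063.

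With length and GC offsets 1 gene was called higher and 4 lower, with 1 other lipid gene higher. The medians of sterol and fatty acid enzymes were -0.065 and 0.010, and FDFT1 (0.0038), NSDHL (0.011), DHCR7 (-0.0083) and ACLY (-0.015) turned. With the 2-D libraries thinned, 4 were called lower, the medians of regulators and fatty acid enzymes were -0.069 and 0.031, and FDFT1 (0.00097), SCD (-0.0082) and ACLY (-0.011) turned.

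The labels give both conditions replicates 1 and 2, but nothing ties equal numbers together, and their deviations had a correlation of -0.016, so the numbers were not taken as pairs. With the replicate block 3 of the 32 were called higher and 7 lower, the addition being ACACA, and 1223 and 944 of all genes. With offsets and replicate block together the medians of sterol and fatty acid enzymes were -0.064 and 0.010, with FDFT1 at 0.0038, NSDHL at 0.011, DHCR7 at -0.0083 and ACLY at -0.015.

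Leaving out a library leaves 1 in its condition, assumed to vary like the other condition. From 1 to 6 of the 32 were then called higher and 3 to 9 lower (6 and 9 with 3-D replicate 1 left out, 2 and 3 with 3-D replicate 2 left out, and 1 and 4 with either 2-D library left out). Of the other lipid genes 1 to 8 were higher and 1 to 6 lower, and of all genes 560 to 1468 and 414 to 1175. The medians ranged from -0.067 to -0.035 for sterol enzymes, from -0.069 to -0.048 for regulators and from 0.012 to 0.031 for fatty acid enzymes. Genes that turned ranged from -0.060 to 0.014 (MVD), -0.12 to 0.021 (FDPS), -0.017 to 0.017 (FDFT1), -0.0026 to 0.25 (LSS), -0.055 to 0.011 (TM7SF2), -0.067 to 0.013 (NSDHL), -0.083 to 0.027 (EBP), -0.011 to 0.016 (SCD) and -0.0055 to 0.0083 (ACLY). Without the low-count filter and without 2-D replicate 1 the fit put the spread of every gene at the common trend (infinite prior degrees of freedom), and ACACA, whose own replicates spread widely, was called there. With 2 libraries per condition, the intervals given limit what can be said of the genes not called.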
